A study of Mus musculus with 6 samples.

Results

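Macrophage and other leukocyte transcripts were followed in the livers of fasted mice that lacked Acss2. The set was defined by gene symbol, not by measured values, and held 47 genes: 11 Kupffer cell genes, 6 Fc receptor and adaptor genes, 22 general myeloid genes and 8 pan-leukocyte genes. Of these, 45 were found among the 12366 genes of the table, and the levels of Lyz1 and Ms4a7 were not analysed here. The comparison was between Acss2-KO mice (genotype Acss2-/-) and wild type (WT) mice, with 3 liver RNA libraries per genotype. Both groups were male C57BL/6 mice, chow-fed, aged 22 weeks and fasted for 48 h, so every group here was fasted. The labels do not say how the Acss2 allele was made and tie no library to a named animal, and the p-values below cover the spread between libraries, part of which may be technical.

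Kupffer cells are the resident macrophages of the liver. They sit in the sinusoids, where they take up microbes, ageing red cells and debris from portal blood, and in the mouse they carry the surface proteins F4/80, Clec4f and Tim4. Macrophages as a lineage depend on the CSF1 receptor and the transcription factor PU.1. They share Fc receptors, the phagocyte oxidase and lysosomal proteins with monocytes and granulocytes, and CD45 with nearly all leukocytes. Acss2, the missing enzyme, makes acetyl-CoA from acetate in the cytosol and nucleus. In RNA from whole liver, fewer cells of a type and less of a transcript per cell cannot be told apart.

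Levels are given in CPM, reads per 1000000 reads of a library. Values below 1 CPM are listed at 0 in the table and were counted as 1 CPM in means and sums. A gene was tested with limma if its mean over the 6 libraries was at least 5 CPM, which held for 28 of the 45 genes and for 9355 genes in all. Fold changes are Acss2-KO over WT and were computed on log2(CPM + 1), so those of low genes are understated, and "fell" or "rose" marks a Benjamini-Hochberg adjusted p under 0.05 over all tested genes. Errors are SD over 3 libraries for levels and SE for log2 fold changes. Estimated depth was 21.8 to 28.6 M reads per Acss2-KO library and 23.4 to 30.8 M reads per WT library (M, 1000000), so that 5 CPM stood for 109 to 154 reads. Acss2 itself was measured in Acss2-KO livers at 1.37, 3.56 and 2.35 CPM and in WT livers at 74.0, 81.0 and 73.5 CPM, which matches the genotype labels. Hepatocyte marker transcripts summed to 154100, 148600 and 141900 CPM in Acss2-KO livers and to 127500, 128300 and 141500 CPM in WT livers, and the macrophage genes Adgre1, Clec4f, Cd5l and Csf1r were above 0 in each library.

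One library stood apart for these genes. WT 2 was the highest of the WT libraries for 42 of the 45 genes (93.3%, against 31.8% of all listed genes), among them all 34 listed genes outside the Kupffer cell class. Its level was a median of 2.15 times the mean of WT 1 and WT 3, with a range of 0.59 to 4.32, where the median of all listed genes was 1.01. The ratio was above 2 for 31 of the 45 genes and for 2.96% of all listed genes. Hpgd (1.05), Mertk (1.16), Fcgr2b (1.23), Ccl24 (1.26) and Cxcl13 (0.59) had the lowest ratios. The same ratio had a median of 2.02 for 20 other Kupffer cell genes, 1.90 for T and NK cell markers, 1.59 for B and plasma cell markers, 1.55 for sinusoidal endothelial markers, 1.2 for stellate cell and fibroblast markers and 0.96 for hepatocyte markers. Among the Acss2-KO libraries, Acss2-KO 1 was the lowest for 21 of the 45 genes and for 8 of the 11 Kupffer cell genes. Results are therefore given with and without WT 2.

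**Figure D1:**
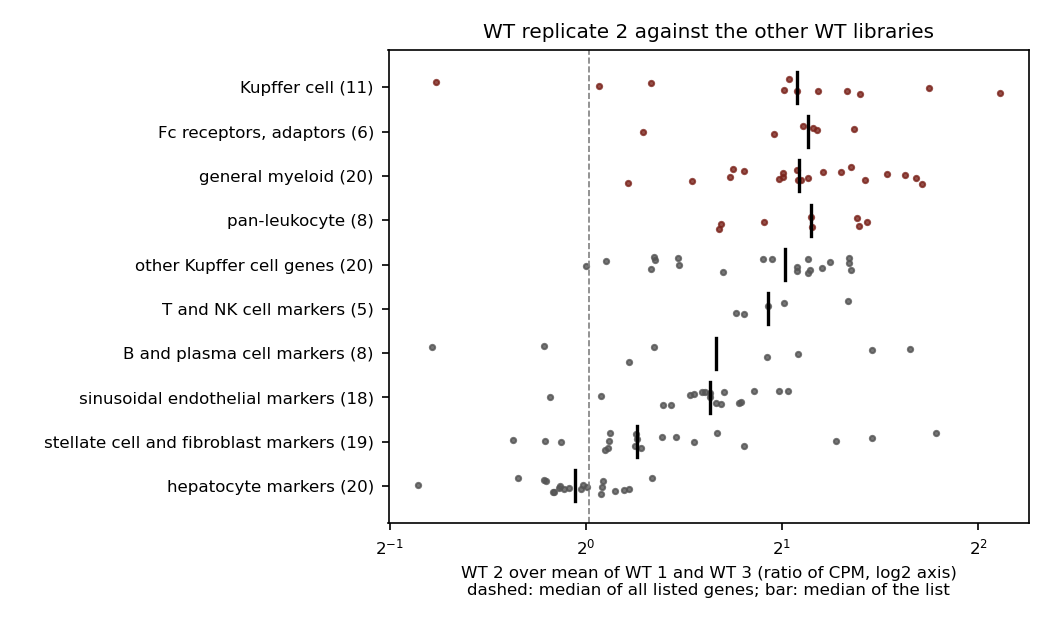
Level in WT 2 divided by the mean of WT 1 and WT 3 (ratio of CPM, log2 axis) for each gene of the 4 classes (red) and of 6 other lists (grey), with the number of genes in brackets, the median of each list as a bar and the median of all listed genes as a dashed line. The 4 classes have medians between 2.11 and 2.22, and the hepatocyte markers a median of 0.96.

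Of the 28 tested genes, 10 fell in Acss2-KO livers (35.7%, where 23.1% of all tested genes fell) and 1, Cd14, rose (13.4% of all tested genes rose). The genes that fell were Hpgd, Cd5l, Clec4f, Adgre1, Fcgr2b, Tyrobp, Lyz2, Mpeg1, Ptprc and Cd44. The median log2 fold change was -0.70 over the 28 genes and -0.12 over all tested genes. Over all 45 genes, each Acss2-KO library lay below each WT library for 24 (53.3%, against 33.7% of all listed genes) and above for 2, Cd14 and Itgam (18.5% of all listed genes). The mean was lower in Acss2-KO livers for 41 of 45, and for 7286 of all 12366 listed genes. A gene can pass the minimum level through 1 group alone: the Acss2-KO mean of 8 tested genes, Adgre1, Ptprc and Cd44 among them, and the WT mean of Cd14 were under 5 CPM, so these counts are given as a description. WT 1 and WT 3 both exceeded each Acss2-KO library for 24 genes, or 53.3% of the 45, against 36.3% of all listed genes.

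Without WT 2, 6 of the 28 genes fell and 0 rose by limma, where 15.1% of all tested genes fell and 8.33% rose. At an unadjusted p under 0.05, 10 of the 28 genes were lower and 2 higher. The share of all tested genes at that threshold was not counted, so these numbers have no comparison. The 6 were Hpgd, Adgre1, Mpeg1, Ptprc, Cd44 and Fcgr2b, and the median log2 fold change was -0.34, against -0.11 over all tested genes. The gene that lost its rise was Cd14, whose value was still 2.69 (SE 0.79, limma adjusted p = 0.0739). Counts of falls among the 28 genes also depended on the other libraries. They were 6 without Acss2-KO 1 and 4 without Acss2-KO 3, where 16.7% and 12.7% of all tested genes fell. They were 13 without WT 1 and 5 without WT 3, where 14.5% and 21.4% of all tested genes fell. Without WT 3 the set thus fell no more often than all tested genes. None rose without Acss2-KO 3, WT 1 or WT 3, where 5.61%, 9% and 9.77% of all tested genes rose. With WT 2 and Acss2-KO 1 both left out, 6 fell and 1 rose, where 13.8% of all tested genes fell and 7.50% rose. The balance of falls and rises over all tested genes, 2161 and 1252 on CPM, was 1765 and 1690 with median-of-ratios scaling, 1729 and 1710 with trimmed-mean scaling and 1641 and 1816 with quantile scaling, where 7, 7 and 6 of the 28 genes fell. In the authors' deposited table, 22 of the 45 genes are lower and 2 higher at an adjusted p under 0.05, against 14.7% lower and 12.5% higher of all listed genes.

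**Figure D2:**
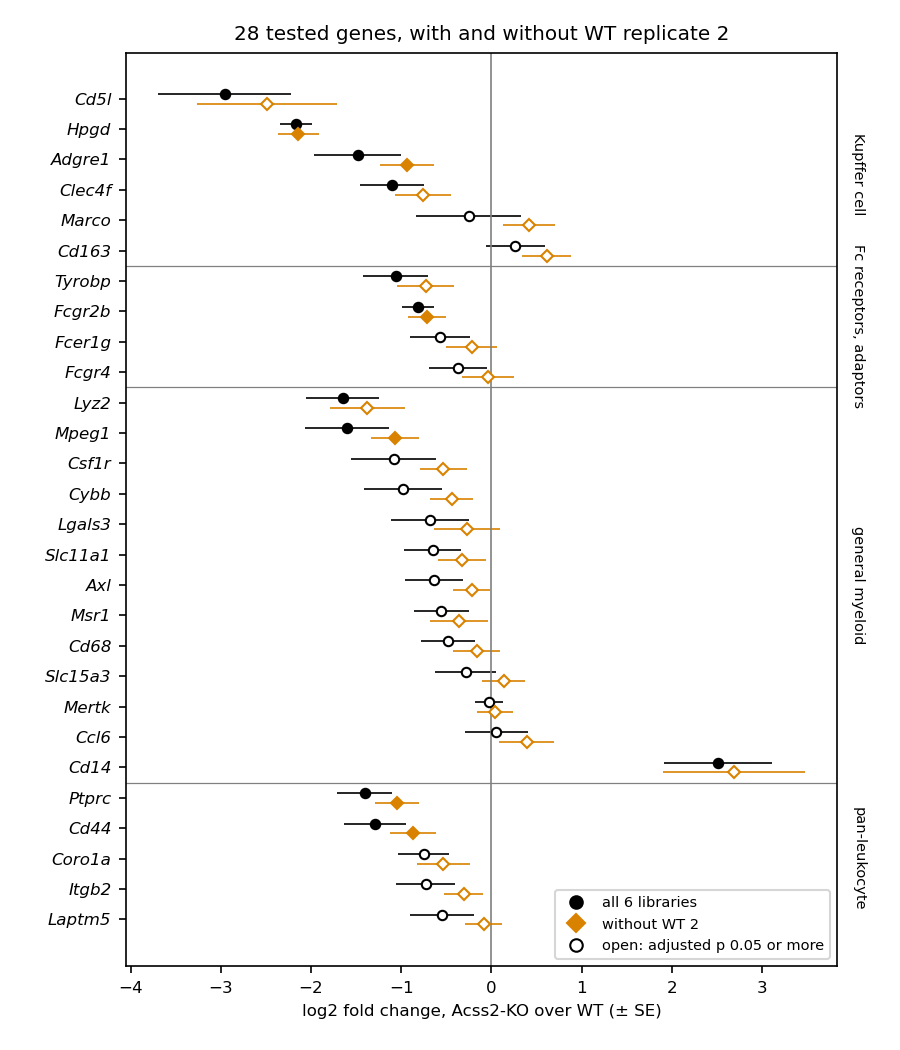
Log2 fold change of Acss2-KO over WT with its SE for the 28 tested genes by class, in the fit of all 6 libraries (black) and in the fit without WT 2 (orange), with open symbols where the adjusted p was 0.05 or more. Most values move toward 0 without WT 2, and Hpgd stays near its value, at -2.17 with and -2.14 without that library.

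The Kupffer cell genes had the lowest median change of the 4 classes. Of 6 tested, 4 fell (Hpgd, Cd5l, Clec4f and Adgre1; 66.7%, against 23.1% of all tested genes) and none rose (0 also at an unadjusted p under 0.05 in limma), with a median log2 fold change of -1.29. Adgre1 reached the minimum level through the WT livers alone. Without WT 2 none rose, but 1 was higher at an unadjusted p under 0.05 in limma. The falls numbered 2 without Acss2-KO 1, WT 2 or WT 3 and 1, Hpgd, without Acss2-KO 3, and the median was -0.85 without WT 2. Their summed level was 84.1, 134 and 132 CPM in Acss2-KO livers and 259, 529 and 339 CPM in WT livers. Each Acss2-KO library lay below each WT library for 6 of the 11 genes (54.5%, against 33.7% of all listed genes).

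Hpgd, which encodes the enzyme that inactivates prostaglandins, was at 25.5, 30.9 and 36.0 CPM in Acss2-KO livers and at 129, 145 and 148 CPM in WT livers. The groups were far apart, with little spread inside either and no elevation in WT 2. Its level in WT 2 was 1.05 times the mean of WT 1 and WT 3, where the Kupffer cell class had a median of 2.11. Which liver cells the Hpgd transcript came from was not tested. Means were 30.8 ± 5.27 CPM in Acss2-KO livers and 141 ± 10.3 CPM in WT livers (SD, n = 3 each), 4.49-fold lower in Acss2-KO livers, with a log2 fold change of -2.17 (SE 0.18, adjusted p = 0.000236). This call was kept in each of the 20 alternative settings, with adjusted p between 0.000168 and 0.00713 when 1 library was left out. Hpgd lies on chromosome 8 (56294552 to 56321046).

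Cd5l encodes a secreted scavenger-type protein made by tissue macrophages. It was at 3.18, 21.1 and 10.8 CPM in Acss2-KO livers, against 46.9, 152 and 68.6 CPM in WT livers. Acss2-KO 1 was the lowest library and WT 2 the highest, and the groups did not overlap. The fold change was the lowest of the tested genes of the set (log2 fold change -2.96, SE 0.74, adjusted p = 0.029). The call was lost without Acss2-KO 3 (adjusted p = 0.0805), WT 1 (0.0567) or WT 2 (0.0854, log2 fold change -2.49), and the lowest adjusted p with 1 library left out was 0.0164.

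Clec4f, a C-type lectin that marks mouse Kupffer cells, was at 24.1, 46.2 and 43.4 CPM in Acss2-KO livers and 52.4, 128 and 74.5 CPM in WT livers. The groups did not overlap, with WT 1 close to the highest Acss2-KO libraries. It fell by 1.10 on the log2 scale (SE 0.36, adjusted p = 0.0424), and by 0.76 without WT 2 (adjusted p = 0.1). It missed the threshold also without Acss2-KO 1 (0.105), Acss2-KO 3 (0.0776) or WT 3 (0.102), and with each of the 4 scalings tried (adjusted p between 0.0559 and 0.0616). The lowest adjusted p with 1 library left out was 0.0226.

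Adgre1, which encodes F4/80, was at 2.35, 5.28 and 4.5 CPM in Acss2-KO livers, against 7.52, 28.1 and 9.19 CPM in WT livers. Every WT library was above every Acss2-KO library, and WT 2 was about 3.36 times the mean of the other WT libraries. The log2 fold change was -1.48 (SE 0.48, adjusted p = 0.0466) with all libraries and -0.94 (SE 0.30, adjusted p = 0.0497) without WT 2. The call was lost without Acss2-KO 1 (0.131), Acss2-KO 2 (0.0697), Acss2-KO 3 (0.103) or WT 3 (0.0677) and with median-of-ratios (0.0516), trimmed-mean (0.0522) and quantile scaling (0.0733). The lowest adjusted p with 1 library left out was 0.0362.

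Marco and Cd163, both scavenger receptors, were the tested Kupffer cell genes that passed in neither direction. Marco was at 6.77, 8.23 and 7.89 CPM in Acss2-KO livers, against 3.66, 24.9 and 7.89 CPM in WT livers (log2 fold change -0.25, SE 0.58, adjusted p = 0.761). The sign of Marco rested on WT 2, since the value was 0.42 without it. Cd163, the receptor for haemoglobin bound to haptoglobin, was at 15.6, 13.4 and 21.3 CPM in Acss2-KO livers and 8.28, 22.5 and 13 CPM in WT livers (0.27, SE 0.33, adjusted p = 0.546). Both genes overlapped between the groups.

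The other 5 Kupffer cell genes were below the minimum of 5 CPM. Timd4, which encodes the phosphatidylserine receptor Tim4, was listed at 0 in Acss2-KO 1 and was at 2.38 and 1.93 CPM in Acss2-KO 2 and 3, against 3.36, 9.51 and 4.199 CPM in WT livers. Folr2, the folate receptor beta, was listed at 0 in Acss2-KO 1 and was at 1.79 and 1.84 CPM in Acss2-KO 2 and 3, against 4.99, 13.4 and 6.77 CPM in WT livers. Neither gene overlapped between the groups, and with no minimum level both fell (Timd4 -1.20, SE 0.34, adjusted p = 0.0261, and Folr2 -1.80, SE 0.31, adjusted p = 0.00394). Spic, a transcription factor of iron-recycling macrophages, was listed at 0 in all Acss2-KO livers and in WT 1, and was at 2.25 and 1.197 CPM in WT 2 and WT 3. The chemokine genes Ccl24 and Cxcl13 stayed at or below 3.29 CPM in each library and overlapped between the groups.

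**Figure D3:**
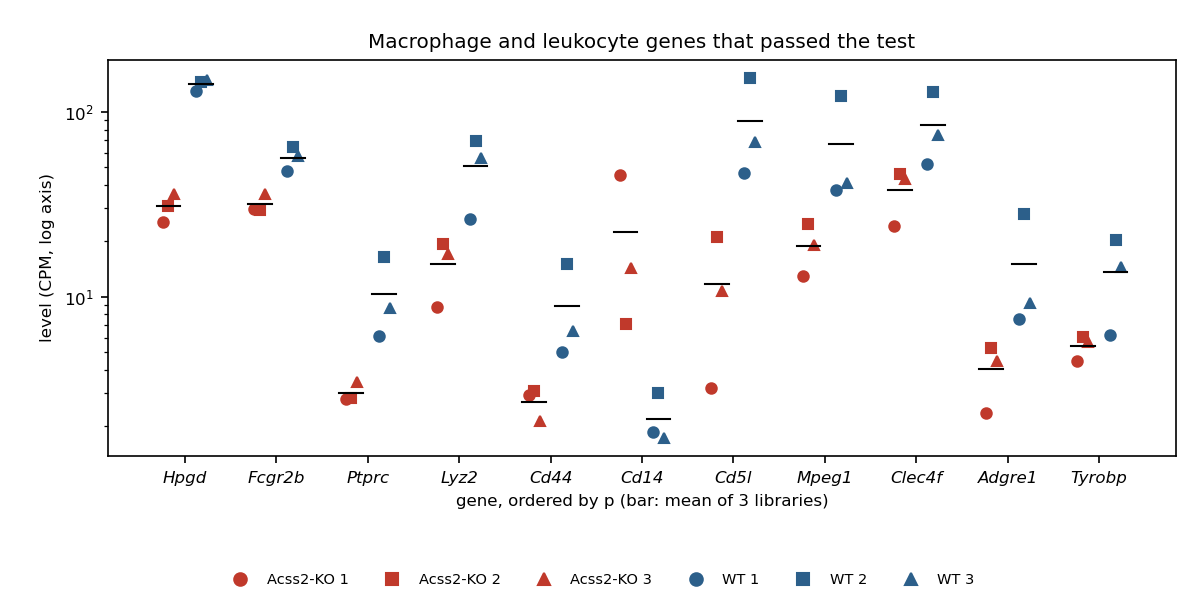
Level in each library (CPM, log axis) of the 11 genes that passed the test, ordered by p, with Acss2-KO libraries in red on the left of each pair and WT libraries in blue on the right, and bars at the group means. WT 2 (blue square) is the highest WT library for all but Hpgd, and Cd14 is the gene with Acss2-KO above WT.

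Promoter sequence was set beside these levels because the set shares a lineage. Of the 47 genes, 35 had an entry in the RefSeq promoter table (GRCm38.p6), among them Lyz1 and Ms4a7, whose levels were not analysed. The 250 bases before the start were searched on both strands for 7 motifs. GGAAGT, the core bound by ETS factors such as PU.1, was found in 14 (40.0%) of the 35 promoters and in 22.3% of the promoters of 26742 genes. GAGGAA, the other end of the PU.1 site, which can overlap GGAAGT, was found in 15 (42.9%) and in 26.0%, and the joined form GAGGAAGT in 1 (2.86%, Fcgr4) and in 2.81%. The interferon-response motif, a pair of GAAA runs 2 bases apart, was found in 4 (11.4%, Aif1, Cybb, Fcgr4 and Ncf1) and in 3.47%. The AP-1 motif TGANTCA was found in 4 (11.4%) and in 7.81%, the C/EBP motif TTGCNNAA in 4 (11.4%) and in 10.9%, and TATAAA in 3 (8.57%) and in 14.3%. A match describes the letters of the window and not the binding of a factor.

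The 150 bases before the RefSeq start are shown for some of the 10 genes that fell, from each class. GGAAGT or its reverse complement ACTTCC is in capitals, and the strand of the gene is read 5′ to 3′. All genes that fell and held GGAAGT in the search above are shown. Those not shown, Adgre1, Tyrobp, Mpeg1 and Cd44, were not among the 14 with GGAAGT, and a gene with no promoter entry could not be. Hpgd and Cd5l, the genes with the lowest fold changes, hold no copy in this window. Clec4f, Lyz2 and Fcgr2b hold 1 copy and Ptprc holds 2. The first bases of the single copies lie 33, 100 and 31 bases before the RefSeq start. Those of Ptprc lie 112 and 58 bases before it. Ptprc has 2 RefSeq starts, and the window of the most upstream is shown. The Fcgr2b and Ptprc windows lie inside the gene intervals as deposited, and the Clec4f window does in part.
Hpgd (chr8:56294402-56294551, plus strand): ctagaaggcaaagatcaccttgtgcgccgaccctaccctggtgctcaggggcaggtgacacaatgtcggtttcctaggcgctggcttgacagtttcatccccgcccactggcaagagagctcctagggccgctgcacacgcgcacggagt
Cd5l (chr3:87357731-87357880, plus strand): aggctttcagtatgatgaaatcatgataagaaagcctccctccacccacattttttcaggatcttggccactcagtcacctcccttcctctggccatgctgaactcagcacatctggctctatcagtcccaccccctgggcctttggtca
Clec4f (chr6:83656117-83656266, minus strand): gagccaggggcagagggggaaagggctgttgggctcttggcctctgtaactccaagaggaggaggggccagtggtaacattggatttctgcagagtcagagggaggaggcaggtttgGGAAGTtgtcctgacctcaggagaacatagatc
Fcgr2b (chr1:170976072-170976221, minus strand): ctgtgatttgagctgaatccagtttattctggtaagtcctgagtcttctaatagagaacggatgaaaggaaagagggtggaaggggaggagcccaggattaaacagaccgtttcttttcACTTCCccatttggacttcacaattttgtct
Lyz2 (chr10:117282273-117282422, minus strand): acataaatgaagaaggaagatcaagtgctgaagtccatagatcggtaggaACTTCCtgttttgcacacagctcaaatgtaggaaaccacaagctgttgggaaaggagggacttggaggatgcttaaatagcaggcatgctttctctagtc
Ptprc (chr1:138175306-138175455, minus strand): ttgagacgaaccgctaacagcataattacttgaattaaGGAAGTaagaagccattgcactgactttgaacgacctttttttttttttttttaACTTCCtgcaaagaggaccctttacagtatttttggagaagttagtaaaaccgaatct

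Among the Fc receptor and adaptor genes, 2 of 4 tested fell (Fcgr2b and Tyrobp; 50%, against 23.1% of all tested genes) and none rose, with a median log2 fold change of -0.69. Without WT 2 the median was -0.47 and 1, Fcgr2b, fell. Fcgr2b encodes the inhibitory IgG receptor, which sinusoidal endothelial cells of the liver also carry. It was at 29.7, 29.5 and 35.8 CPM in Acss2-KO livers, against 47.8, 64.5 and 57.3 CPM in WT livers. The spread inside each group was small and the groups did not overlap. The log2 fold change was -0.81 (SE 0.18, adjusted p = 0.00871), and leaving out any 1 library kept the call (adjusted p between 0.0148 and 0.0397). It was lost with WT 2 and Acss2-KO 1 both left out (0.0755).

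Tyrobp encodes DAP12, a signalling adaptor of myeloid receptors. It was at 4.5, 6.06 and 5.66 CPM in Acss2-KO livers and 6.23, 20.1 and 14.4 CPM in WT livers. The groups did not overlap, by a narrow gap between Acss2-KO 2 and WT 1. The log2 fold change was -1.06 (SE 0.36, adjusted p = 0.0472). Only without WT 1 was this call kept when 1 library was left out, with adjusted p = 0.123 without Acss2-KO 1, 0.0728 without Acss2-KO 2, 0.113 without Acss2-KO 3, 0.122 without WT 2 and 0.150 without WT 3 and 0.00568 without WT 1. With other scalings it was also lost (adjusted p between 0.0673 and 0.101).

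Fcer1g, the signalling chain shared by activating Fc receptors, was at 8.17, 4.17 and 5.24 CPM in Acss2-KO livers and 6.11, 15.1 and 7.46 CPM in WT livers (log2 fold change -0.57, SE 0.33, adjusted p = 0.202). Acss2-KO 1 lay above WT 1 and WT 3. Of the activating receptors, Fcgr4 had a log2 fold change of -0.37 (SE 0.33, adjusted p = 0.396). Without WT 2 the values were -0.22 for Fcer1g and -0.036 for Fcgr4. Fcgr3 was at 3.14, 2.81 and 2.51 CPM in Acss2-KO livers and 3.05, 10.6 and 6.28 CPM in WT livers, below the minimum level, and overlapped between the groups by WT 1. Fcgr1, the high-affinity receptor, was listed at 0 in all 3 Acss2-KO livers and was at 1.97, 5.13 and 2.01 CPM in WT livers.

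The genes Fcgr2b, Fcgr4, Fcgr3 and Fcer1g lie in that order on chromosome 1 between 170958617 and 171234365, with gaps of 42.4, 21.4 and 164.6 kb (coordinates as deposited, taken as GRCm38). Fcgr2b fell, Fcgr4 and Fcer1g did not pass and Fcgr3 was below the minimum level, and with no minimum its log2 fold change was -0.87 (SE 0.34, adjusted p = 0.0715). Differences between these genes were not tested. Fcgr2b and Fcgr3 have similar sequence, as do Lyz2 and Lyz1, and the sources used here do not say how reads that match more than 1 gene were counted, so their split is uncertain.

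Of 13 tested general myeloid genes, 2 fell (Lyz2 and Mpeg1; 15.4%, against 23.1% of all tested genes), 1 rose (Cd14; 7.69%, against 13.4%) and 10 did not pass, with a median log2 fold change of -0.64. Without WT 2 the median was -0.27, 1 fell (Mpeg1) and 0 rose. The mean was lower in Acss2-KO livers for 18 of the 20 listed genes of the class, and for 7286 of all 12366 listed genes. Their summed level was 188, 176 and 190 CPM in Acss2-KO livers, against 201, 523 and 260 CPM in WT livers, so WT 1 lay close to the Acss2-KO libraries. That sum includes Cd14, which moved the other way.

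Lyz2, the macrophage lysozyme, was at 8.82, 19.2 and 17.03 CPM in Acss2-KO livers, against 26.4, 69.1 and 56.5 CPM in WT livers. The groups did not overlap, with Acss2-KO 1 the lowest. Means were 15 ± 5.46 CPM in Acss2-KO livers and 50.6 ± 22.0 CPM in WT livers (SD, n = 3 each), 3.14-fold lower in Acss2-KO livers, with a log2 fold change of -1.65 (SE 0.40, adjusted p = 0.0169). The threshold was missed by a small margin without WT 2 (-1.38, adjusted p = 0.0519) and without WT 3 (0.0627), with a lowest value of 0.00521 over the libraries left out in turn.

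Mpeg1 encodes perforin-2, a pore-forming protein that acts on engulfed bacteria. It was at 12.9, 24.6 and 19.03 CPM in Acss2-KO livers and 37.8, 122 and 41.1 CPM in WT livers. WT 1 and WT 3 were close to each other, and both were above all Acss2-KO libraries. The log2 fold change was -1.61 (SE 0.47, adjusted p = 0.0342) with WT 2 and -1.07 (SE 0.27, adjusted p = 0.0224) without it. Without Acss2-KO 1 (0.0942) or Acss2-KO 3 (0.0908) this call was lost.

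Cd14, the co-receptor that hands bacterial lipopolysaccharide to TLR4, went against the rest of the set. It was at 45.3, 7.11 and 14.3 CPM in Acss2-KO livers and at 1.84, 2.99 and 1.72 CPM in WT livers. All Acss2-KO libraries were above all WT libraries, with Acss2-KO 1 far above the others. The level was 5.72-fold higher on the log2(CPM + 1) scale (log2 fold change 2.52, SE 0.60, adjusted p = 0.0201). The call was lost without Acss2-KO 3 (0.0583), WT 1 (0.0896), WT 2 (0.0739) or WT 3 (0.0513) and with a pseudocount of 5 (0.054), and the lowest adjusted p with 1 library left out was 0.00254. Itgam, which encodes the integrin CD11b, was the other gene with Acss2-KO above WT, at 7.67, 3.03 and 5.24 CPM in Acss2-KO livers and 1.42, 2.41 and 1.33 CPM in WT livers. Its mean was below the minimum level, and with no minimum it rose (1.17, SE 0.29, adjusted p = 0.0155).

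Csf1r, the receptor on which macrophages depend, was at 15.03, 26.9 and 20.1 CPM in Acss2-KO livers, against 31.3, 95.01 and 27.9 CPM in WT livers. The groups did not overlap, but WT 2 was 3.21 times the mean of WT 1 and WT 3 and the test was not passed (log2 fold change -1.08, SE 0.47, adjusted p = 0.113). Without WT 2 the value was -0.53 (SE 0.26, adjusted p = 0.158). Spi1, which encodes PU.1, was below the minimum level, at 3.84, 3.03 and 3.16 CPM in Acss2-KO livers and 3.34, 8.82 and 4.29 CPM in WT livers, and overlapped between the groups. Cd68, a lysosomal glycoprotein of macrophages, was at 6.77, 7.31 and 10.5 CPM in Acss2-KO livers and 7.52, 18.6 and 11.1 CPM in WT livers (-0.48, SE 0.30, adjusted p = 0.234). Acss2-KO 3 lay above WT 1.

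The remaining tested myeloid genes did not pass. Cybb, the catalytic chain of the phagocyte oxidase, had a log2 fold change of -0.98 (SE 0.43, adjusted p = 0.111), and Axl, a receptor for apoptotic cells, one of -0.64 (SE 0.32, adjusted p = 0.151), both without overlap between the groups. The related receptor gene Mertk differed least from 0, at 29.7, 32.0 and 35.02 CPM in Acss2-KO livers and 32.0, 36.3 and 30.5 CPM in WT livers (-0.03, SE 0.16, adjusted p = 0.899). Log2 fold changes were -0.56 for the scavenger receptor gene Msr1, -0.68 for the galectin gene Lgals3, -0.65 for the phagosomal metal transporter gene Slc11a1, -0.28 for the lysosomal transporter gene Slc15a3 and 0.06 for the chemokine gene Ccl6, with adjusted p-values between 0.129 and 0.913. Cybb passed without WT 1 (0.0434), as did Slc11a1 (0.0478) and Msr1 (0.0266). Without WT 2 the log2 fold changes were closer to 0, at -0.44 for Cybb, -0.22 for Axl, -0.36 for Msr1, -0.27 for Lgals3 and -0.32 for Slc11a1 (adjusted p between 0.194 and 0.620).

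Several low myeloid genes were near or below detection in Acss2-KO livers. Ncf1, the organizer subunit of the phagocyte oxidase, was listed at 0 in all 3 Acss2-KO livers and was at 2.85, 6.77 and 3.48 CPM in WT livers. Aif1, which encodes IBA1, was listed at 0 in all 3 Acss2-KO livers and was at 1.95, 5.32 and 3.43 CPM in WT livers. Cd86, a costimulatory ligand for T cells, was at 1.01 CPM in Acss2-KO 2 and listed at 0 in the other Acss2-KO livers, against 1.71, 5.10 and 2.95 CPM in WT livers. In these genes every WT library was above 0 and above all Acss2-KO libraries, and with no minimum level all fell (adjusted p = 0.00563 for Ncf1, 0.0128 for Aif1 and 0.0226 for Cd86). Values listed at 0 were counted as 1 CPM, so the spread between Acss2-KO libraries was not measured for Ncf1 and Aif1, and hardly for Cd86. These adjusted p-values do not cover that spread and are given as a description. The receptors for bacterial products Tlr2 and Tlr4 were lower in each Acss2-KO library than in each WT library at means of 1.92 ± 0.28 and 1.03 ± 0.05 CPM in Acss2-KO livers, against 3.98 ± 2.67 and 2.01 ± 0.94 CPM in WT livers, and did not pass even with no minimum level (adjusted p = 0.144 and 0.103).

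**Figure D4:**
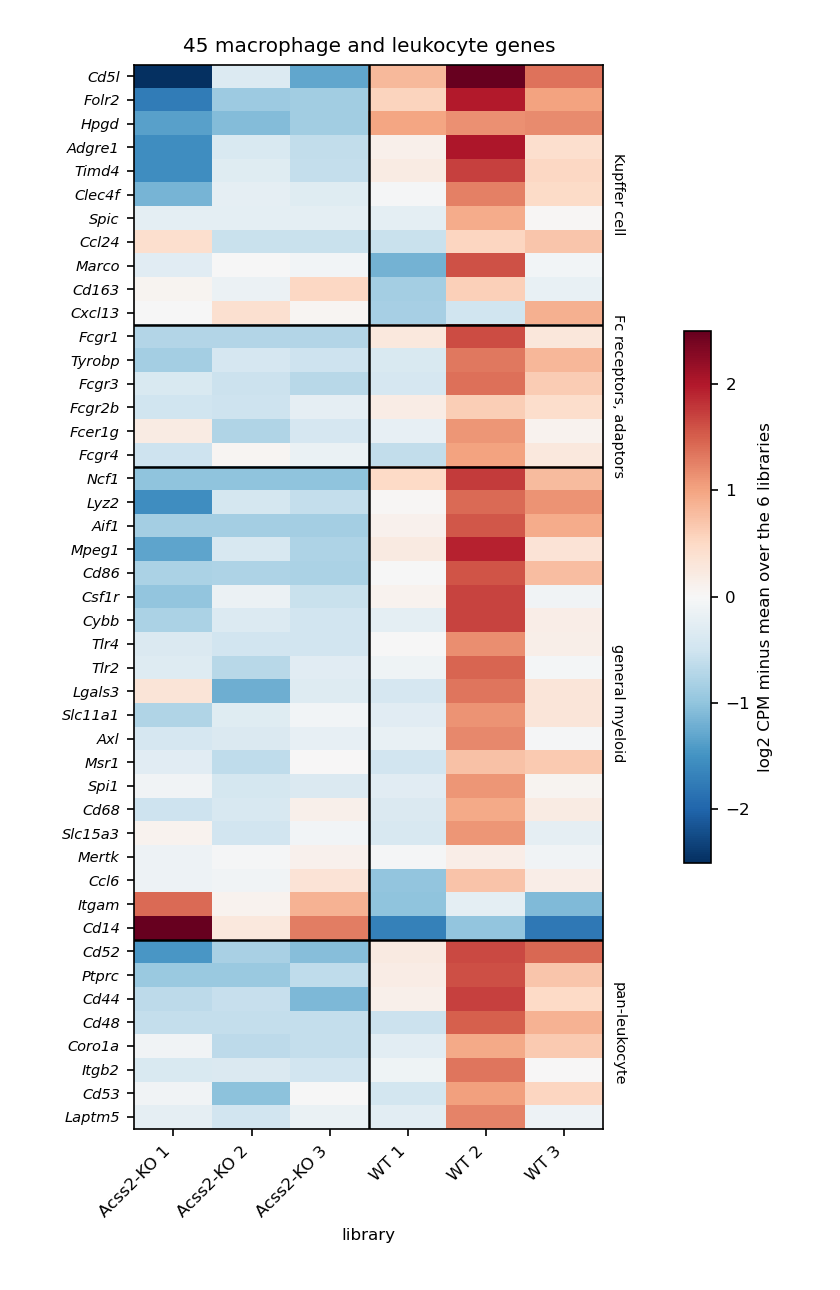
Level of the 45 listed genes (rows, by class) in the 6 libraries (columns, Acss2-KO left of WT), as log2 CPM minus the mean of the gene over the libraries, with values listed at 0 drawn at 1 CPM. The WT 2 column is the darkest red for most rows, and Cd14 and Itgam are red in the Acss2-KO columns.

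The pan-leukocyte genes had a median log2 fold change of -0.75, with 2 of 5 tested lower (Ptprc and Cd44; 40.0%, against 23.1% of all tested genes) and none higher. Ptprc, Cd44, Itgb2 and Coro1a had Acss2-KO means under 5 CPM and so reached the minimum level through the WT livers alone. The share is therefore given as a description. Without WT 2 the median was -0.53 and both Ptprc and Cd44 were still lower. Their summed level was 37.3, 32.0 and 36.5 CPM in Acss2-KO livers and 44.2, 123 and 63.7 CPM in WT livers. Each Acss2-KO library lay below each WT library for 5 of the 8 genes (62.5%, against 33.7% of all listed genes). Ptprc, which encodes CD45, was at 2.79, 2.81 and 3.43 CPM in Acss2-KO livers, against 6.11, 16.3 and 8.63 CPM in WT livers. The Acss2-KO libraries were close together, and the lowest WT library was well above them. Means were 3.01 ± 0.37 CPM in Acss2-KO livers and 10.4 ± 5.33 CPM in WT livers (SD, n = 3 each; log2 fold change -1.40, SE 0.31, adjusted p = 0.00896). This call was kept in each of the 19 alternatives that gave a value, with adjusted p between 0.00758 and 0.0400 when 1 library was left out, and was -1.05 (SE 0.25) without WT 2.

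Cd44, the hyaluronan receptor, was at 2.93, 3.07 and 2.11 CPM in Acss2-KO livers and 5.03, 15.03 and 6.50 CPM in WT livers. The groups did not overlap (log2 fold change -1.29, SE 0.34, adjusted p = 0.0196, and -0.87, SE 0.26, adjusted p = 0.0375 without WT 2). The call was lost without Acss2-KO 3 (0.0735) or WT 3 (0.0557) and with quantile scaling (0.0662), with 0.0153 as the lowest value over the libraries left out in turn. Coro1a, an actin regulator of leukocytes, had a log2 fold change of -0.75 (SE 0.29, adjusted p = 0.0671) and passed without WT 1 (0.0200), and without WT 2 it was at -0.53 (0.207). The log2 fold changes of Itgb2, the shared chain of the leukocyte integrins (-0.73, SE 0.33, adjusted p = 0.108), and of the lysosomal gene Laptm5 (-0.55, SE 0.36, adjusted p = 0.256) did not pass, and without WT 2 they were -0.31 and -0.09.

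Of the pan-leukocyte genes below the minimum level, Cd52, a small glycoprotein of lymphocytes and monocytes, was at 1.09, 1.68 and 1.42 CPM in Acss2-KO livers and 3.48, 9.32 and 8.06 CPM in WT livers. With no minimum level it fell (-1.65, SE 0.30, adjusted p = 0.00476). Cd48, a ligand on blood cells, was listed at 0 in all 3 Acss2-KO livers and was at 1.04, 4.26 and 2.79 CPM in WT livers. The tetraspanin gene Cd53 overlapped between the groups, at 4.08, 2.14 and 4.35 CPM in Acss2-KO livers and 3.18, 8.88 and 6.28 CPM in WT livers.

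With no minimum level, 17 of all 45 genes fell and 2 rose, where 23.5% of all listed genes fell and 12.0% rose. The added genes were Timd4, Folr2, Fcgr1, Ncf1, Aif1, Cd86 and Cd52 among those that fell and Itgam among those that rose. Of these, Fcgr1, Ncf1 and Aif1 were listed at 0 in each Acss2-KO liver, and Cd86, Timd4 and Folr2 in some. Their p-values do not fully cover the spread between Acss2-KO libraries. Of the 17 genes below the minimum, 10 had each Acss2-KO library below each WT library and 1 had each above. Of all listed genes, 33.7% and 18.5% did. In all, 5 of the 45 genes were listed at 0 in each Acss2-KO liver (Fcgr1, Ncf1, Aif1, Cd48 and Spic), as were 356 of the 12366 listed genes.

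To set the Kupffer cell genes apart from the general ones, levels were divided by Csf1r or by summed levels within each library, which removes a factor common to all macrophage transcripts of a library. These ratios were chosen after the levels were seen and carry no test. The sum of the 11 Kupffer cell genes over the sum of the 34 other genes was 0.306, 0.521 and 0.469 in Acss2-KO livers, against 0.827, 0.686 and 0.813 in WT livers. The groups did not overlap, and WT 2 was the lowest WT library in this ratio. The 34 genes include Cd14, which was higher in Acss2-KO livers (45.3 CPM in Acss2-KO 1) and so lowers their ratios. The sums were not taken without Cd14. Without Hpgd the ratio was 0.214, 0.400 and 0.340 in Acss2-KO livers and 0.415, 0.498 and 0.458 in WT livers, still apart. Without both Hpgd and Cd5l it was 0.202, 0.318 and 0.302 in Acss2-KO livers and 0.266, 0.301 and 0.294 in WT livers, and the groups overlapped.

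Single Kupffer cell genes differed in the same ratio. Cd5l over Csf1r was 0.212, 0.784 and 0.536 in Acss2-KO livers and 1.49, 1.6 and 2.46 in WT livers, and Cd5l over Clec4f was 0.132, 0.457 and 0.248 in Acss2-KO livers and 0.895, 1.19 and 0.920 in WT livers. Both ratios were lower in every Acss2-KO library. Clec4f over Csf1r overlapped, at 1.6, 1.72 and 2.16 in Acss2-KO livers and 1.67, 1.35 and 2.68 in WT livers. Marco over Csf1r was higher in every Acss2-KO library (0.451, 0.306 and 0.392) than in the WT libraries (0.117, 0.262 and 0.283), as was Cd163 over Csf1r (1.04, 0.496 and 1.06 in Acss2-KO livers, against 0.264, 0.237 and 0.467 in WT livers). Of these genes Cd5l and Clec4f fell, and Marco, Cd163 and Csf1r itself did not pass the test of their levels. General genes also differed in the ratio to Csf1r. Mpeg1 over Csf1r was lower in every Acss2-KO library (0.859, 0.914 and 0.946) than in the WT libraries (1.21, 1.28 and 1.47). Cd14 and Itgam over Csf1r were higher in every Acss2-KO library, and Lyz2, Cybb, Ptprc, Cd68, Fcer1g and Tyrobp over Csf1r overlapped. Such a difference was thus not particular to Kupffer cell genes.

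**Figure D5:**
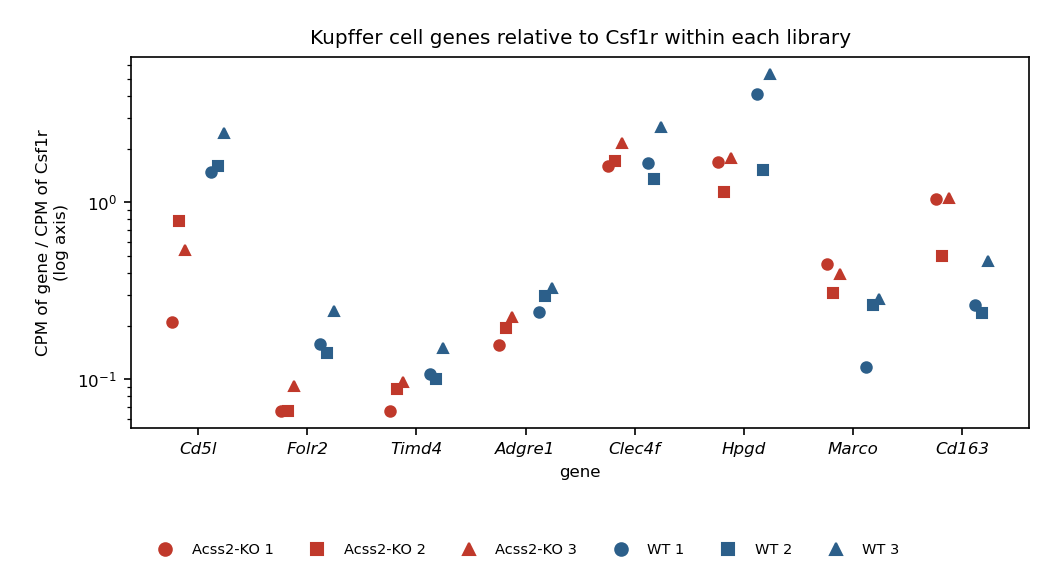
CPM of 8 Kupffer cell genes divided by the CPM of Csf1r in the same library (log axis), with Acss2-KO libraries in red left of WT libraries in blue. Cd5l, Folr2, Timd4 and Adgre1 lie lower in Acss2-KO, Marco and Cd163 higher, and Clec4f and Hpgd overlap; Folr2 and Timd4 were listed at 0 in Acss2-KO 1 and are drawn at 1 CPM there.

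Other genes of the same cells, outside the set, were counted from lists. Of 15 tested further Kupffer cell genes, 4 fell and 2 rose (26.7% and 13.3%, close to the 23.1% and 13.4% of all tested genes), with a median log2 fold change of -0.56. Id3 was among the 2 that rose, and the Acss2-KO mean was above the WT mean for 6 of the 20 listed genes. The iron exporter gene Slc40a1 fell by 2.17 (SE 0.27, adjusted p = 0.00104), with 18.5, 38.6 and 25.8 CPM in Acss2-KO livers and 105, 152 and 115 CPM in WT livers, and the lectin gene Fcna fell by 0.98 (SE 0.21, adjusted p = 0.00852). The complement genes C1qa, C1qb and C1qc, which macrophages make, did not pass (-0.56, -0.40 and -0.58, adjusted p between 0.175 and 0.409) and overlapped between the groups. Of 5 tested genes of signalling below Fc and related receptors, 3 fell, among them the inhibitory receptor gene Sirpa (-1.70, SE 0.36, adjusted p = 0.00872), and of 8 oxidase and phagosome genes 5 fell, among them the lysosomal protease gene Ctsb (-1.03, SE 0.24, adjusted p = 0.0112). The shares that fell in these last lists were 60% and 62.5%. No gene of them rose, also at an unadjusted p under 0.05. With 1 library left out, falls ranged between 2 and 5, 1 and 3, and 0 and 5 in the 3 lists. Without Acss2-KO 3 they numbered 2, 1 and 0, without Acss2-KO 1 they numbered 3, 1 and 1, and without WT 2 they numbered 4, 1 and 1.

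Markers of other cells were read beside the set. All 5 listed T and NK cell markers (Gzma, Il2rb, Lck, Nkg7 and Thy1) were listed at 0 in each Acss2-KO liver and were low in WT livers too. All but Il2rb were also listed at 0 in WT 1, and none was above 4.56 CPM, a value that Il2rb had in WT 2, their highest WT library. Il2rb was the 1 gene of the 5 with each Acss2-KO library below each WT library. B and plasma cell markers summed to 27.8, 20.3 and 16.3 CPM in Acss2-KO livers and 37.7, 127 and 79.1 CPM in WT livers, and 2 of 3 tested (66.7%) fell (Jchain -1.97 and Igkc -1.89), and 0 did without Acss2-KO 3 or WT 3. All 5 tested red cell genes fell, among them Alas2, the first enzyme of haem synthesis in red cells (-2.60, SE 0.25, adjusted p = 0.000386), with 7.01, 10.8 and 5.28 CPM in Acss2-KO livers and 48.5, 60.1 and 42.5 CPM in WT livers. Of 18 sinusoidal endothelial markers 3 fell and 3 rose (median 0.21), of 15 stellate cell and fibroblast markers 4 fell and none rose (median -0.50), and of 20 hepatocyte markers 5 fell and 3 rose (median -0.03). The shares that fell were 16.7%, 26.7% and 25% in these lists, against 23.1% of all tested genes. The part of these other cells, of blood left in the tissue and of the high values of WT 2 in the levels of the 45 genes was not tested.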

How the data were processed

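The 3 Acss2-KO and 3 WT libraries came from Trizol-extracted liver RNA and a TruSeq kit, per the labels' protocols. The deposited values are log2 CPM with 2 decimals, values below 1 CPM being listed at 0, as read from the sums of each column. Log2 fold changes, p-values and a class score per group from the authors' own test were deposited too, and the sources used here do not name its tool. Per the submitters' processing notes, which state no role, the tools and builds include Bowtie 0.12.2 and mm8. Deposited coordinates were read as GRCm38, since gene starts lay a median of 8 bp from RefSeq GRCm38 starts for 11623 genes. The handling of strand and of multiply matching reads, and the annotation, were not given in the sources used here.

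CPM were computed from the deposited values, a listed 0 being set to 1 CPM. Steps between low values gave each library's estimated depth. Rounding to 2 decimals left no whole reads to recover, and a count model was not used. Tests were run on log2(CPM + 1) for genes averaging 5 CPM or more over all 6 libraries, without covariates, by limma 3.58.1 (R 4.3.3; empirical Bayes, robust through statmod 1.5.0 and trended on the mean), with p-values adjusted after Benjamini-Hochberg and called under 0.05. The procedure was tested on simulated data. Where a library was left out, the same 9355 genes were tested. The alternatives were pseudocounts of 0.5 and 5, the deposited log2 scale, 4 further scalings, no minimum or 20 CPM, thresholds of 0.01 and 0.1, empirical Bayes that is not robust, the replicate number as a block, each library left out in turn, and WT 2 and Acss2-KO 1 left out together.

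The genes and lists were chosen with earlier results of these data known. Values per library are given for genes with the smallest p in each class, for those with a defining role and for those that go against their class; from the other lists, up to 3 genes that passed are named, smallest p first. C1qa, C1qb, C1qc, Csf1, Myd88, Zeb2, Id1, Id3, Irak4 and the low genes named beyond that rule were chosen after their values were seen. One gene of the other lists is not reported here by name. Promoters are from the RefSeq table of GRCm38.p6.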

Additional observations from a re-analysis of the deposited data

How the results depend on the processing

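Falls among the 28 tested genes, 10 with the settings used, numbered 6 with quantile scaling and 3 at a threshold of 0.01. Of all tested genes, 17.5% and 10.6% fell in these fits, so at 0.01 the set was near the share of all genes. Falls numbered 17 of 45 with no minimum level and 6 of 9 with a minimum of 20 CPM, where 23.5% and 20.1% of all genes fell. With WT 2 and Acss2-KO 1 both left out, 6 fell and 1 rose, where 13.8% and 7.5% of all tested genes did. The 1 rise became 0 with a pseudocount of 5, with a minimum of 20 CPM and at 0.01, and 2 with no minimum. With 1 library left out, falls ranged between 4 and 13 and rises between 0 and 1. Of all tested genes, between 12.7% and 25.5% fell and between 5.61% and 17.3% rose in these fits. A fit with replicate number as block gave 12 falls and 0 rises, Csf1r (adjusted p = 0.00869) and Cybb (0.0263) being added and Cd14 (0.0668) lost. Across all tested genes, deviations from the group means of same-numbered libraries correlated at -0.102, -0.14 and 0.0899. Not every library correlated best with its own number. Whether the numbers pair the libraries for the genes of this set was not tested.

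Signs reversed for 6 genes that did not pass. With 1 library left out, values ranged between -0.82 (without WT 1) and 0.42 (without WT 2) for Marco, -0.056 (without WT 1) and 0.61 (without WT 2) for Cd163, -0.53 (without WT 1) and 0.14 (without WT 2) for Slc15a3, -0.089 (without Acss2-KO 3) and 0.040 (without WT 2) for Mertk, and -0.36 (without WT 1) and 0.39 (without WT 2) for Ccl6. With WT 2 and Acss2-KO 1 both left out, Marco was at 0.49, Fcgr4 at 0.088, Slc15a3 at 0.035 and Mertk at 0.097. Mertk also reversed with median-of-ratios (0.080), upper-quartile (0.052), trimmed-mean (0.087) and quantile scaling (0.052). Of the values of single genes of the set under the alternatives, 464 kept direction and side of the threshold, 55 lost the call, 7 gained it and 15 reversed. The cause was not tested. With 3 libraries per group and levels of a few CPM for most of the set, a gene that did not pass is not shown to be the same in both groups.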

Other observations

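Genes that make, sense or follow signals to macrophages were counted from further lists. Of 6 tested growth factor and receptor genes, 2 rose (33.3%, against 13.4% of all tested genes) and none fell (1 was lower at an unadjusted p under 0.05). Tgfbr2, a receptor of TGF-beta, was at 107, 68.1 and 93.7 CPM in Acss2-KO livers and 40.0, 46.5 and 26.5 CPM in WT livers (1.24 as log2 fold change, SE 0.25, limma adjusted p = 0.00655). The gene Tgfbr1 rose by 0.73 (SE 0.20, adjusted p = 0.0203), a call lost without Acss2-KO 1, Acss2-KO 3, WT 1 or WT 3. Csf1, a ligand of the CSF1 receptor, did not pass (-0.17, SE 0.18, adjusted p = 0.493). Of 15 transcription factor genes known from macrophages, 4 fell, among them Cebpa, Nr1h3 and Zeb2, and 2 rose (Id3 and Id1), shares of 26.7% and 13.3% that are close to the 23.1% and 13.4% of all tested genes, and several of them are also expressed by hepatocytes.

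In the Toll-like receptor pathway, 2 of 14 tested genes fell (Tlr12 and Irak4) and 2 rose (Traf6 and Irak2), 14.3% each way, against 23.1% and 13.4% of all tested genes. The adaptor gene Myd88 did not pass (-0.02, SE 0.17, adjusted p = 0.950). Of 6 tested cytokine and chemokine genes 4 fell (66.7%) and none rose. Cxcl1 was at 2.59, 1.72 and 2.30 CPM in Acss2-KO livers and 8.46, 11.8 and 10.6 CPM in WT livers (-1.81, SE 0.21, adjusted p = 0.000743), and Cxcl12 fell by 1.23 (SE 0.22, adjusted p = 0.00409). Falls in these 4 lists numbered 0, 3, 1 and 4 without WT 2, and with any 1 library left out they ranged between 2 and 4 for transcription factors and between 1 and 2 for the Toll-like receptor pathway, with 2 without Acss2-KO 3 for transcription factors, and 1 without Acss2-KO 3, WT 1 or WT 2 for the Toll-like receptor pathway. Rises ranged between 1 and 2 for growth factors and receptors, 0 and 2 for transcription factors and 1 and 4 for the Toll-like receptor pathway. Of 7 listed genes counted as monocyte markers 2 were tested, and Gsr rose, a call lost without Acss2-KO 3, WT 1 or WT 2. Gsr encodes glutathione reductase, which many cells express, so its rise is not a measure of monocytes. Ccr2 was listed at 0 in all Acss2-KO livers, against 1.01, 3.10 and 2.53 CPM in WT livers. Of 3 listed neutrophil markers 1 was tested and did not pass, though it rose without WT 2, and of 4 dendritic cell markers Bst2, which many cells express, fell (-1.73, SE 0.21, adjusted p = 0.000966).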
